A study of Mus musculus with 2 samples.

Results

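The genes described here are those of the mouse major histocompatibility complex (MHC) class II pathway. They are the classical chain genes H2-Aa, H2-Ab1 and H2-Eb1, the peptide-loading genes H2-DMa, H2-DMb1, H2-Oa and H2-Ob, the invariant chain gene Cd74 and Ciita, the gene of their transcriptional coactivator. They were chosen by name, and each probe set annotated to 1 of them alone was used. All 9 were on the array, with 9 probe sets of their own, among 8220 named genes, and 1 further probe set was shared by H2-DMb1 and H2-DMb2.

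RNA came from peritoneal macrophages of age-matched littermate mice, either Pac1-/- or Pac1+/+ (wild type). Pac1 is the name used for Dusp2, which encodes a dual-specificity phosphatase of MAP kinases. Mice of both genotypes had received 2 ml of 3% thioglycollate, a sterile irritant, 4 days before lavage, and the adherent cells of both were then exposed to 100 ng/ml lipopolysaccharide (LPS) for 6 hours. There was 1 Affymetrix array per genotype, 2 in all. The sources used here do not give the strain, the age, the number of mice behind each array or the part of Pac1 that was deleted. Unstimulated cells were not analysed here, so the values are levels after LPS and not induction by it.

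MHC class II molecules are pairs of an alpha and a beta chain that show peptides from the endosome to CD4+ T cells. The invariant chain (CD74) guides newly made pairs to the endosome and blocks their groove until H2-DM exchanges its remnant for a peptide, a step that H2-O restrains in B cells. CIITA binds no DNA itself but is recruited by the RFX complex, NF-Y and CREB to the conserved X and Y boxes of these promoters. Macrophages make little class II at rest and more after interferon-gamma, which acts through JAK kinases and IRF1 on Ciita.

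The X and Y boxes are what ties these genes to Ciita, so the promoter stretch that holds them is shown for the member genes in which it was found. RefSeq promoters (GRCm38.p6), 250 bases before to 50 after the start site, were found for 6 of the 9 genes, and none was matched for H2-Ab1, Cd74 and Ciita. The search, set after the sequences had been seen, was for GNAAC, the core of the X box, followed within 20 to 30 bases by ATTGG, the reverse complement of the CCAAT core of the Y box. Both strands were searched. H2-Oa, H2-DMb1, H2-Ob, H2-Aa and H2-Eb1 held the pair on the strand of the gene, and neither of the promoters listed for H2-DMa did. Of all 32851 promoters of that length, 0.941% held the pair on the strand of the gene and 1.91% on either strand. Each stretch below is written 5′ to 3′ along the gene, with the X and Y cores in capitals.
H2-Aa: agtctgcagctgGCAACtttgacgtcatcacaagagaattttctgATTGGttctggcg
H2-Eb1: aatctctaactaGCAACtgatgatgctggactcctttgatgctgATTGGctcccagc
H2-DMb1: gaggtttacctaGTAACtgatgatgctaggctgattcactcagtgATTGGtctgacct
H2-Ob: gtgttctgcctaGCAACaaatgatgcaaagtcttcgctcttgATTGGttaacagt
H2-Oa: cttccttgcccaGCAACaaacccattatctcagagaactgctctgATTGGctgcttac

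These lie on chromosome 17 upstream of the start sites, at chr17:34287859-34287916 (minus strand) for H2-Aa, chr17:34305764-34305820 (plus) for H2-Eb1, chr17:34153085-34153142 (plus) for H2-DMb1, chr17:34238806-34238860 (plus) for H2-Ob and chr17:34092291-34092348 (plus) for H2-Oa. The cores were 28 bases apart in H2-Aa, H2-DMb1 and H2-Oa, 27 in H2-Eb1 and 25 in H2-Ob. H2-Aa alone of these promoters also held TGACGTCA, the palindrome bound by CREB, just downstream of its X core, a word found in 1.79% of all promoters. A match is a description of the letters and does not show that a factor was bound.

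The signals were MAS5 intensities (arbitrary units), and their median was 38 in knockout cells and 35 in wild-type cells. A floor was set at the median signal over both arrays, 36.4. Genes above it on at least 1 array are called eligible here (5119 genes), and log2 ratios are knockout over wild type. Signals of different probe sets cannot be ranked against each other, so each gene is compared with itself. The exceptions are the signal sums of B cell and dendritic cell markers below, in which bright probe sets weigh most. Because each genotype has 1 array, the differences have no replicate check and no test, and the number of arrays limits the precision. Dusp2 was at 76.8 on the knockout array against 333.0 in the wild type (log2 ratio −2.12). Macrophage markers were above the floor on both arrays for 12 of 12 genes, beside 4400 of all 8220 named genes. Among these markers was Itgam, at 356.4 in knockout cells and 301.4 in wild-type cells. Itgam encodes the Mac-1 alpha chain, by which the preparations were stained (92 to 95% positive, per the labels' protocols).

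The class II genes were near their wild-type level on the knockout array, and Ciita was lower. Of the 9 members, 7 were eligible, 6 of them above the floor on both arrays, and H2-Oa and H2-Ob were below it on both. None of the 7 was 2-fold apart. Over all eligible genes, 1.07% were 2-fold lower, 1.23% were 2-fold higher and 47.8% had ratios below 0. The members' median log2 ratio was 0.04, beside 0.02 for all eligible genes. The 6 members above the floor on both arrays had ratios from −0.26 to 0.25, and all 6 lay within the central 90% of the 4400 genes so measured (−0.58 to 0.58), 3 of them within the middle 50% (−0.19 to 0.21). Scaling the arrays to a common median (median scaling) moved the median of all eligible genes by about −0.11, from 0.02 to −0.10, and the members' median to −0.08, so their distance from all genes stayed at 0.02.

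**Figure D1:**
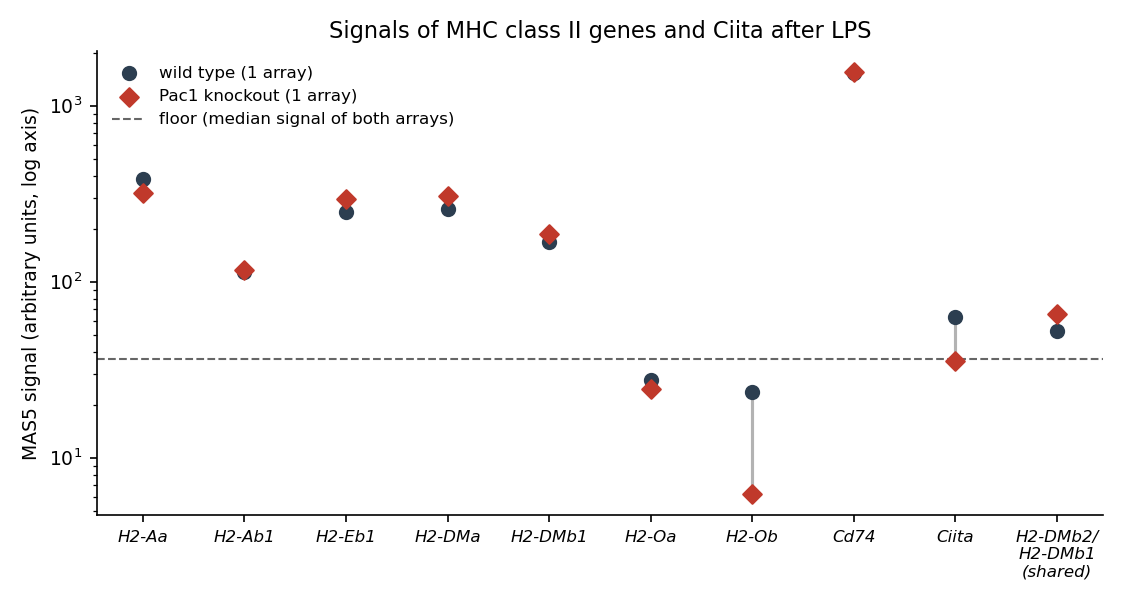
MAS5 signals (arbitrary units, log axis) of the 9 member genes and of the probe set shared by H2-DMb2 and H2-DMb1, with a circle for the wild-type array, a diamond for the knockout array and a dashed line at the floor of 36.4. Diamond and circle nearly coincide for H2-Ab1 and Cd74, H2-Oa and H2-Ob lie under the floor on both arrays, and for Ciita the wild-type signal lies above it and the knockout signal just under it.

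The classical chains differed from each other in direction. H2-Aa, the alpha chain of the I-A molecule, gave 318.5 in knockout cells and 382.4 in wild-type cells (log2 ratio −0.26), so the knockout had 83.3% of the wild-type level. H2-Ab1, the beta chain of the same molecule, gave 116.7 and 113.5 (0.04, but −0.08 after median scaling). H2-Eb1, the beta chain of the I-E molecule, gave 296.6 and 250.2, 119% of the wild-type level (0.25). The knockout array was thus the lower one for the I-A alpha chain and the higher one for the I-E beta chain, and near the wild-type array for the I-A beta chain. The log2 ratios of H2-Eb1 and H2-Aa were 0.51 apart, a distance that multiplying an array by a constant does not change. Differences of these sizes were common. As far apart in either direction as H2-Aa were 41.2% of the eligible genes, as far as H2-Eb1 43.8%, and as far as H2-Ab1 89.1%.

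Cd74, which encodes the invariant chain, gave 1556.9 in knockout cells and 1532.4 in wild-type cells. Its log2 ratio was 0.02, and −0.10 after median scaling. The knockout signal was 102% of the wild-type signal, and 93.7% of the eligible genes were as far apart or farther.

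The genes of the peptide exchange factor H2-DM were slightly higher on the knockout array. H2-DMa, its alpha chain, gave 308.5 against 258.7 in the wild type (log2 ratio 0.25). H2-DMb1, its beta chain, gave 186.3 against 168.1 (0.15), from a probe set with a suffix for probes common to a gene group. The probe set shared by H2-DMb1 and the neighbouring copy H2-DMb2 gave 65.7 against 52.6 (0.32). The 3 probe sets therefore had the same direction, which they kept after median scaling (0.14, 0.03 and 0.20). Of the eligible genes, 42.5% were as far apart as H2-DMa and 63.2% as far as H2-DMb1. The probe set for H2-DMb2 alone was under the floor on both arrays, at 34.9 and 31.3.

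The chains of H2-O, the inhibitor of H2-DM found mainly in B cells, were below the floor in both genotypes. H2-Oa, the alpha chain, gave 24.7 in knockout cells and 27.7 in wild-type cells. H2-Ob, the beta chain, gave 6.20 and 23.7. At such signals no fold is given. Both promoters held the X and Y cores shown above, as did those of H2-Aa, H2-Eb1 and H2-DMb1, which were above the floor on both arrays.

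Ciita had the lowest ratio of the members. Its single probe set gave 35.6 on the knockout array, just under the floor of 36.4, and 63.0 in the wild type. The gene was thus at least 1.73-fold lower in the knockout (log2 ratio −0.79 against the floor), short of 2-fold. It was the only 1 of the 7 eligible members past 1.5-fold, and it was lower, beside 5.72% of all eligible genes that were 1.5-fold lower and 6.37% that were 1.5-fold higher. As far apart in either direction were 275 of the 5119 eligible genes (5.37%), and 137 (2.68%) had as low a ratio. Of the 719 genes that, like Ciita, were above the floor on 1 array only, 98 (13.6%) were as far apart and 41 (5.70%) as low. A second dim group was the 1363 eligible genes whose brighter signal, like that of Ciita, was under 2 times the floor. Of these, 57 (4.18%) were as far apart and 24 (1.76%) as low, and the floor keeps every ratio in that group under 2-fold. Ciita was low in signal on both arrays, and a fixed offset of 36.4 added to each signal in place of the floor brought its ratio to −0.47. The 5 target genes above the floor that lie in the class II region and Cd74 did not share the size of its difference, since the lowest of them was H2-Aa at −0.26.

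**Figure D2:**
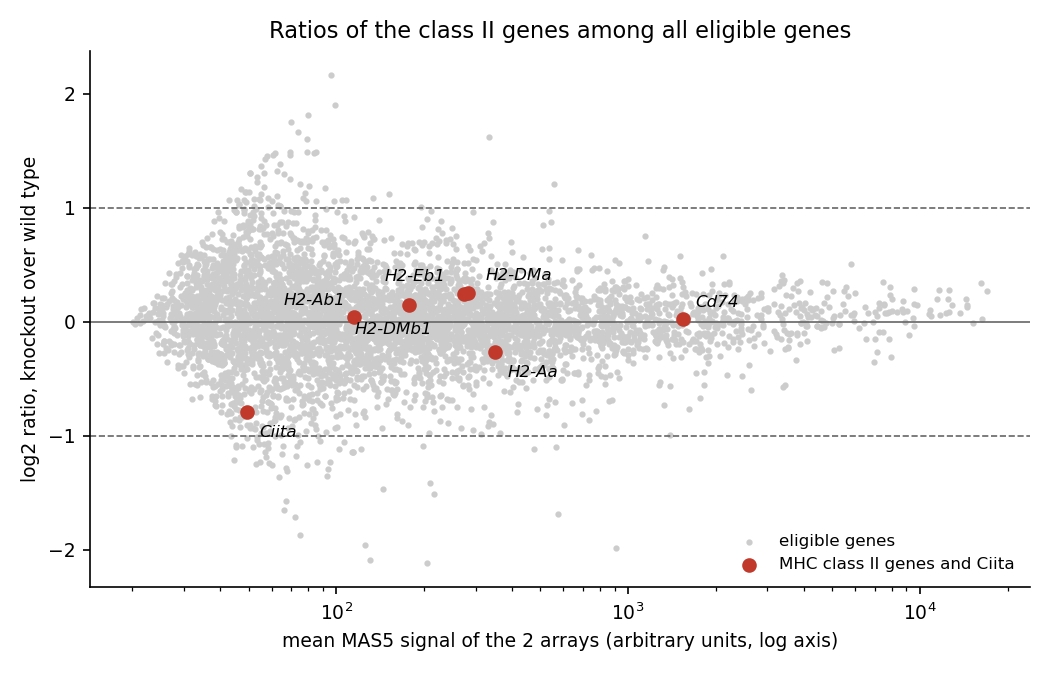
Log2 ratio of knockout over wild type against the mean MAS5 signal of the 2 arrays (arbitrary units, log axis) for the 5119 eligible genes in grey and the 7 eligible members in red, with dashed lines at 2-fold. The members other than Ciita lie close to 0, between −0.26 and 0.25, and Ciita lies at −0.79 among the dim genes, where the grey points spread widely.

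Other class II genes that were not members had low signals. H2-Ea, the I-E alpha chain gene, which RefSeq lists as a transcribed pseudogene in the reference strain, gave 13.8 in knockout cells and 4.80 in wild-type cells. H2-Eb2 gave 24.3 and 6.60, and the pseudogene H2-Pa gave 17.7 and 10.6. With H2-DMb2, 4 of 4 such genes were under the floor on both arrays. The I-E beta chain gene H2-Eb1 was therefore measured above the floor while the gene of its alpha partner was not. H2-Ea is silent in some inbred haplotypes, and the sources used here do not give the haplotype of these mice.

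Apart from Cd74 and Ciita, the members lie in 1 stretch of chromosome 17 that also holds genes of the class I peptide supply. From H2-Pa to H2-Ea the RefSeq table lists 17 genes, 7 of them members. The 5 other genes of the stretch that were above the floor had log2 ratios from −0.17 to 0.21 with a median of −0.01. They were Brd2, a chromatin reader (310.6 in the knockout against 348.6 in the wild type, −0.17), the immunoproteasome genes Psmb9 (−0.10) and Psmb8 (0.04), and the peptide transporter genes Tap1 (−0.01) and Tap2 (925.9 against 799.4, 0.21). The 5 class II members above the floor ran from −0.26 to 0.25. Ratios above and below 0 were interspersed along the stretch. H2-Aa lies between H2-Ab1 and H2-Eb1, neither of which shared its direction, except H2-Ab1 after median scaling.

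**Figure D3:**
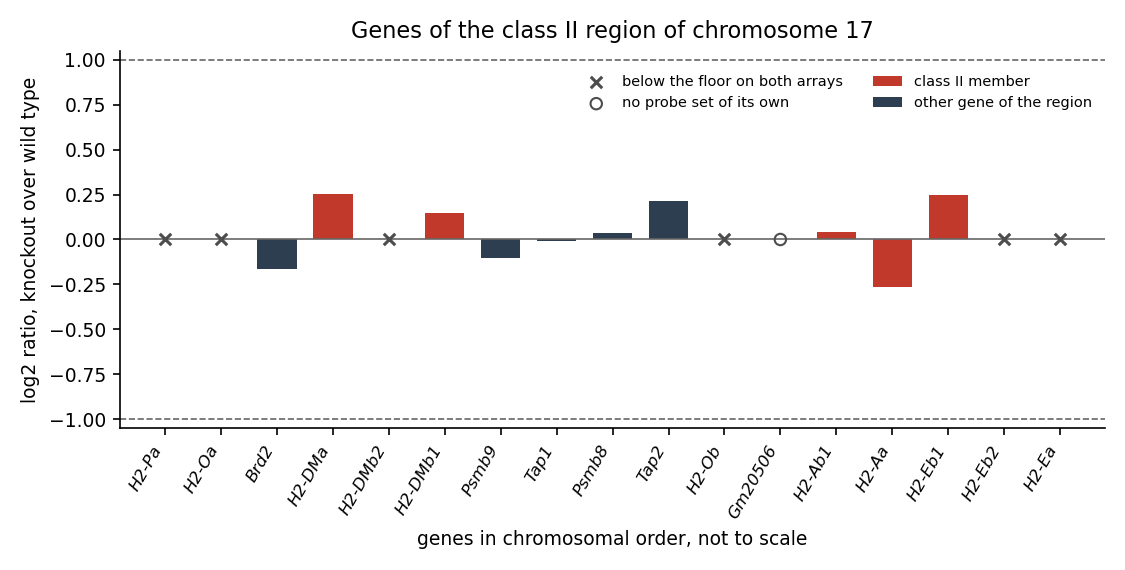
Log2 ratio of knockout over wild type for the 17 genes from H2-Pa to H2-Ea in chromosomal order (not to scale), with red bars for class II members, dark bars for other genes, crosses for genes below the floor on both arrays, an open circle for a gene with no probe set of its own and dashed lines at 2-fold. The bars run from −0.26 (H2-Aa) to 0.25 (H2-DMa) and none comes near a dashed line.

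Genes of the factors that bind the X and Y boxes were measured next. Of 11 listed genes, 7 had a probe set and 4 were eligible, with 0 of 4 2-fold apart, 1 above and 3 below 0 and a median of −0.23. That median was −0.34 after median scaling, −0.35 with no floor, −0.09 with the mean over probe sets and −0.05 with the floor raised to the 75th percentile. Rfxank, a subunit of the RFX complex, gave 41.3 in knockout cells and 69.1 in wild-type cells (log2 ratio −0.74). Its other probe set, with a suffix for possible cross-hybridisation, was under the floor on both arrays, at 20.2 and 5.3, the opposite direction. The brighter Rfxank probe set was 1.67-fold apart and was dim on both arrays. Of the 3 NF-Y subunit genes, Nfyb gave 104.6 and 134.5 (−0.36), Nfya 229.1 and 243.5 (−0.09) and Nfyc 363.5 and 307.4 (0.24). Creb1 was under the floor by the brightest of its 3 probe sets, and another gave 36.7 and 8.70. Rfx5 and Rfxap, the other RFX subunit genes, were not analysed here.

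Of the eligible genes that switch Ciita on or off, 11 of 12 were less than 1.5-fold apart, beside 87.9% of all eligible genes. Of 17 listed, 15 had a probe set and 12 were eligible, with 0 of 12 2-fold apart, 4 above and 8 below 0 and a median of −0.04. Transcripts of interferon-gamma itself (Ifng) were under the floor on both arrays, at 1.90 and 3.20. Its receptor gene Ifngr1 gave 85.7 in knockout cells and 61.5 in wild-type cells (0.48), and the kinase gene Jak2 gave 395.4 and 507 (−0.36). Irf1, an activator of the Ciita promoter, gave 1426.9 and 1533.6 (−0.10). The highest ratio was that of Irf8, a transcription factor of the monocyte lineage, at 818.2 and 527.7 (0.63). Among the genes that restrain the pathway, Socs1, a feedback inhibitor of JAK kinases, was at 420.1 and 420.5, Il10, a cytokine that lowers class II display, was at 170.0 and 191.9 (−0.17), and Tgfb1, a cytokine known to repress Ciita, was at 578.2 and 709.6 (−0.30). Thus Irf8 and Ifngr1 were the highest genes of this list and Jak2 and Tgfb1 the lowest, and only Irf8 was past 1.5-fold. For Usf1, a factor that binds the Ciita promoter, the probe sets disagreed, with −0.14 from the brighter one, which has a suffix for possible cross-hybridisation, and 0.46 from the other (120.1 and 87.2).

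Genes of endosomal antigen processing, which prepare peptides and trim the invariant chain, were mostly slightly higher on the knockout array. All 13 with a probe set were above the floor on both arrays, and 12 of 13 had ratios above 0 (8 of 13 after median scaling, 11 with quantile normalization). Over the whole array, 4400 of 8220 genes were above the floor on both, and 2672 of the 5119 eligible genes had ratios above 0. None of the 13 was 1.5-fold apart. Their median log2 ratio was 0.20, against 0.02 for all eligible genes. After median scaling it was 0.08 against −0.10, so its distance from all genes was 0.19 as reported and 0.18 then. That distance was 0.05 with quantile normalization and 0.08 with loess. Ctss encodes cathepsin S, the protease that cuts the invariant chain in most antigen-presenting cells, and gave 15422.7 in knockout cells and 13416.9 in wild-type cells (0.20). Ifi30, the thiol reductase that opens disulfide bonds of antigens, gave 732.3 and 596.7 (0.30), and the cathepsin L gene Ctsl gave 8981 and 8332 (0.11). The widest were the carboxypeptidase gene Ctsa (3856.8 and 2905.4, 0.41) and Cd83, which stabilises class II at the cell surface (2159.7 and 1714.8, 0.33). Lowest were Lgmn, the asparaginyl endopeptidase gene, at −0.04 and the late-endosome GTPase gene Rab7 at 0.02, though a further Rab7 probe set, with a suffix for possible cross-hybridisation, gave 0.50. Macrophage markers had a similar median, 0.21 over 12 genes, 9 of them above 0 (0.09 and 8 of 12 after median scaling). In them Fcgr1 (0.36) and Csf1r (0.35) were highest, and Msr1 (−0.67) and Mrc1 (−0.29) lowest.

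**Figure D4:**
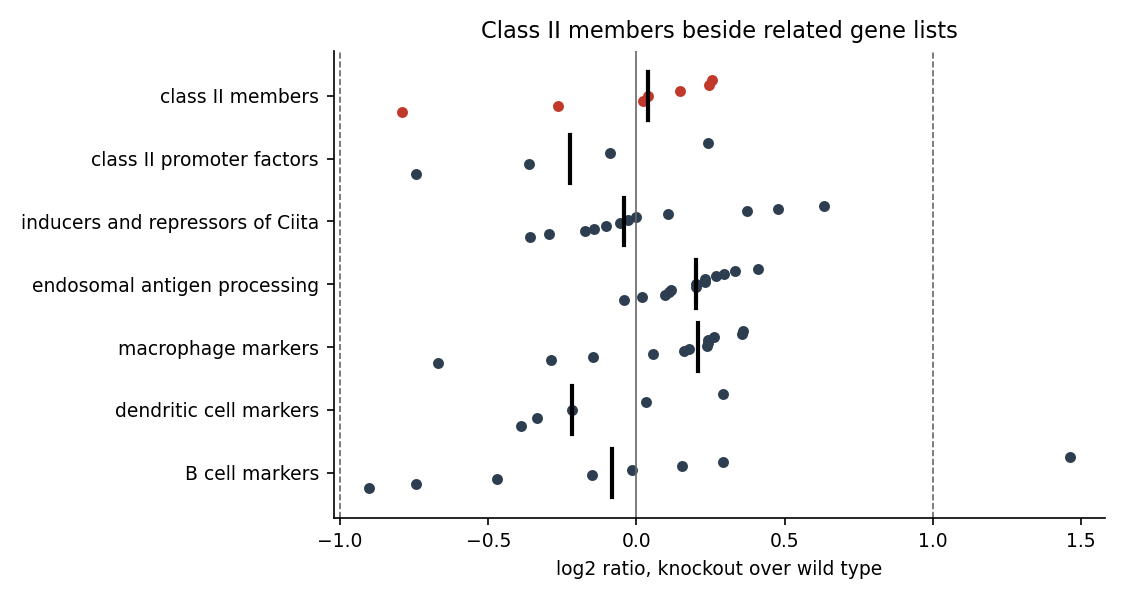
Log2 ratio of knockout over wild type for each eligible gene (points) and the median (black bar) of the class II members in red and of 6 related lists, with dashed lines at 2-fold. The class II median lies at 0.04, the medians of antigen processing genes and macrophage markers at 0.20 and 0.21, and 1 point, Cd79a among the B cell markers, lies outside the dashed lines.

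B cells and dendritic cells also carry class II, so their markers were read beside these results. For the cells as a whole, fewer cells of a type and less RNA per cell cannot be told apart. Of 12 listed B cell markers 11 had a probe set, and their signals summed to 2087 in knockout cells and 1879 in wild-type cells. Without Blnk, which macrophages also express and which gave 1376.8 against 1124.2 (0.29), the sums were 710 and 755. That gap is smaller than the gap of Ighm alone (122.9 against 229.9). The direction of the sums thus depends on which genes are kept. Of the 8 eligible markers 3 had ratios above and 5 below 0. The B cell antigen receptor genes disagreed, with Cd79a at 100.2 against 20.7 (at least 2.75-fold higher) and Cd79b at 82.8 against 91.9 (−0.15), and Ms4a1, which encodes CD20, was at 52.2 against 87.4 (−0.74, and −0.66 from its other probe set). Ighm was lowest, at 122.9 against 229.9 (−0.90), from a probe set with a suffix for possible cross-hybridisation, and another Ighm probe set without such a suffix gave 57.3 against 89.7 (−0.65). Pax5, a factor of B cell identity, was at 40.2 against 55.7 (−0.47). Cd79a was thus high on the knockout array where Ms4a1 and Ighm were high in the wild type.

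Of 12 listed dendritic cell markers 8 had a probe set, with signals summing to 1998 in knockout cells and 2140 in wild-type cells. Most of both sums came from Itgax and Fscn1 (823.9 against 957). The 5 eligible markers had a median log2 ratio of −0.22. That median was 0.03 with the floor lowered to the 25th percentile and −0.09 without probe sets marked for cross-hybridisation. Batf3 (83.9 against 109.8, −0.39) and Flt3 (125.2 against 158, −0.34, with 0.09 from its other probe set) were lowest, and Xcr1 (56.0 against 45.7, 0.29) and Itgax (843.9 against 826, 0.03) highest. Both Flt3 probe sets have a suffix for possible cross-hybridisation. The defining factor Zbtb46 was under the floor on both arrays, at 6.90 and 9.30, as was Ccr7. Of 7 T and NK cell markers with a probe set 6 were under the floor on both arrays, and Cd4 was at 32.8 against 74.5, at least 2.05-fold lower. The part of B, dendritic, T and NK cells in the class II values and in the difference of Ciita was not tested.

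The ratios were recomputed under 10 other processings that keep the 2-fold threshold. H2-Aa stayed below 0 and H2-Eb1, H2-DMa and H2-DMb1 above 0 wherever they had a value, with H2-Aa between −0.38 and −0.24, H2-Eb1 between 0.13 and 0.25 and H2-DMa between 0.14 and 0.26. H2-Ab1 and Cd74 were below 0 in 1 processing, median scaling. Ciita lay between −0.85 and −0.47 and reached 2-fold in none. H2-Ob was more than 2-fold lower where the floor lay at the 25th percentile (−1.26) or left out (−1.93), from signals of 6.20 and 23.7.

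**Figure D5:**
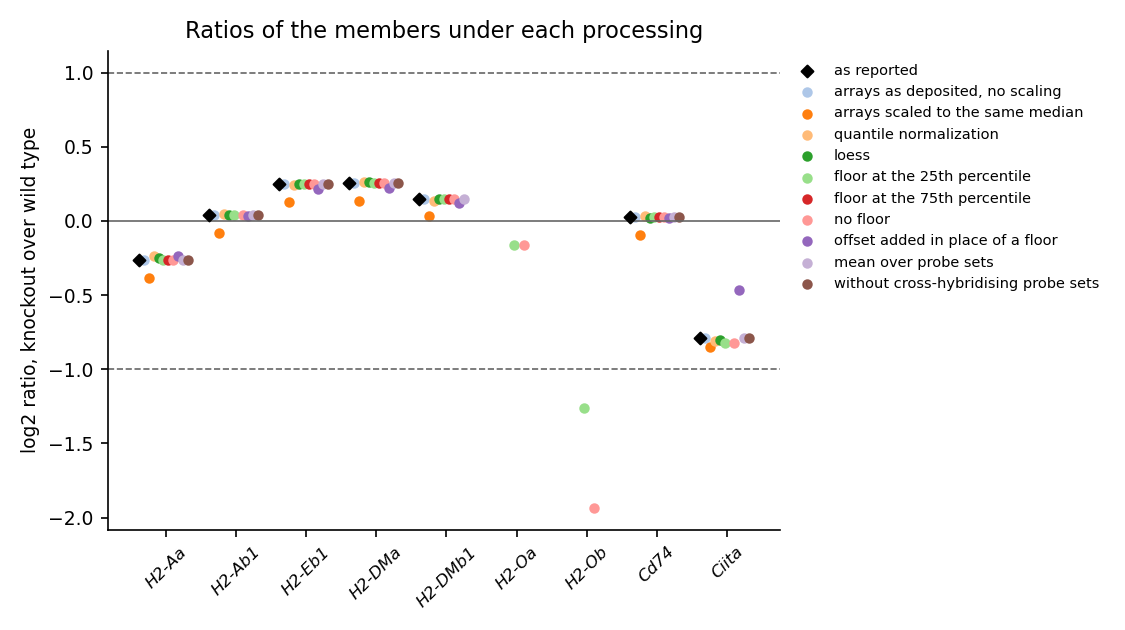
Log2 ratio of knockout over wild type for each member under the reported processing (black diamonds) and 10 alternatives (coloured circles), with dashed lines at 2-fold. The points of each gene lie close together except for Ciita, which runs from −0.85 to −0.47, and H2-Ob. H2-Oa and H2-Ob have values only with a low floor or none.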

How the data were processed

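The deposited values are linear intensities, which the authors computed with MAS5 per the submitters' processing notes. The sources used here do not give its version or settings, and detection calls were not used. The arrays had equal 2% trimmed means as deposited. Of 12654 probe sets, 10298 had 1 gene symbol in the platform annotation, 363 several and 1993 none. The 66 controls were left out of the gene values but were included in the scaling and the floor. A gene was represented by its probe set with the highest mean signal. Arrays were scaled to the same 2% trimmed mean, signals below the floor of 36.4 were raised to it, and log2 ratios were taken. A gene with 1 signal below the floor has a fold written as "at least". The threshold for a difference was 2-fold, without a test. Poly(T) priming favours the 3′ ends of transcripts. Samples were grouped by title. Genes named besides the members were, in each list, those 2-fold apart, the 2 highest and the 2 lowest, and a set chosen by role. Usf1, Pax5, Creb1, Ifng, Cd79b, Zbtb46, Ccr7, Fscn1 and the region's other genes were added after their values were seen. Members and lists were chosen with earlier results of these data known. The ratio computation was tested on simulated data. Python 3.11.15, pandas 2.3.3, numpy 2.4.6 and statsmodels 0.14.6 were used.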

Additional observations from a re-analysis of the deposited data

How the results depend on the processing

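A value was taken as stable when it moved by less than 0.21, the median absolute log2 ratio of all eligible genes. The members' median stayed within that, between −0.08 (arrays scaled to the same median) and 0.15 (floor at the 75th percentile). Of 67 recomputed ratios of single members, 66 were stable. The exception was Ciita with an added offset, at −0.47 beside −0.79 as reported. The number of members 2-fold lower, 0 as reported, was 1 with a floor at the 25th percentile and 1 with no floor, in both cases H2-Ob, and 1 (Ciita) with a 1.5-fold threshold. None was 2-fold higher under any of the 10 alternatives with that threshold, or 1.5-fold higher as reported. Across all genes, 476 were higher and 344 lower with a floor at the 25th percentile, 873 and 669 with no floor, 2 and 8 with one at the 75th, 45 and 22 with an added offset, 326 and 293 with the 1.5-fold threshold, and 43 and 86 after scaling to the same median, beside 63 and 55 as reported. Without probe sets marked for cross-hybridisation H2-DMb1 had no value. Signals near the floor limit Ciita, H2-Oa and H2-Ob. No paired analysis was possible because there was 1 array per genotype.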
